A study of Triticum aestivum with 36 samples.

Results

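A set of 39 probe sets for 34 genes of bread wheat, whose RNA rose late in the developing grain, is described here in 4 Indian varieties. The members were chosen from the mean of the C306 and Sonalika arrays at each stage: their log2 level at 28 days after anthesis (DAA) had to exceed that at 14 DAA by at least 1, while the change between 7 and 14 DAA stayed under 1 in either direction. Eligible were probe sets with a gene symbol in the array annotation, without controls, histone, tubulin, rbcL, Em and Rab genes and the probe sets that the study tabulated as strongly different between good and poor varieties. Of 1167 eligible probe sets, out of 61290 on the array, 39 met the rule. The late rise in C306 and Sonalika selected the members and is given as a description. The arrays of Lok1 and WH291 were not used to select and provide the tests. In Lok1 28 DAA is compared with 14 DAA. In WH291, where the labels of the 14 DAA arrays are in doubt, 28 DAA is compared with 7 DAA. That comparison does not tell a rise before 14 DAA from one after it. Over all probe sets, 8.95% were called higher and 8.59% lower at 28 than at 14 DAA in C306, and 8.82% and 8.52% in Sonalika, from which nothing is read about members chosen on these arrays.

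Caryopses were taken from tagged main spikes of field-grown plants at 7, 14 and 28 DAA. Chapatti, a flat bread made without yeast, is good from the flour of C306 and Lok1 and poor from that of Sonalika and WH291. The labels name no treatment, and each variety and stage has 3 biological replicates on Affymetrix Wheat Genome Arrays, 36 arrays in all. From each log2 level the authors had subtracted the probe set's own median across arrays, so that 0 stands for this median and a level says nothing about one probe set relative to another. For the same reason the values cannot show that a marker was absent. In whole caryopses, fewer cells of a type and less RNA per cell cannot be told apart.

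A wheat grain first divides and enlarges, then fills its starchy endosperm with starch and storage protein, and finally matures and dries. During maturation the starchy endosperm dies, while the embryo and the aleurone stay alive and accumulate protective proteins such as the Em and other late embryogenesis abundant proteins, in part under the control of abscisic acid. By 28 DAA the grain is late in filling and early in maturation. Of the 34 member genes, LOC543412 is the one with a name in the annotation, GSTZ1, a glutathione S-transferase of the zeta class, an enzyme that in mammals acts in the breakdown of tyrosine. The other 33 genes carry only a locus symbol, so no role is given to them and they are ordered by the size and pattern of their values. All 34 genes are listed as protein coding in RefSeq's wheat annotation (IWGSC CS RefSeq v2.1), and no pair of them stands next to each other there.

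The labels of 2 groups were in doubt before any result. At 84 probe sets that were plainly high in some varieties and low in others at each stage, the arrays labelled WH291 14 DAA had the same calls as the Lok1 28 DAA arrays at 84 and the same calls as the WH291 28 DAA arrays at 57. The arrays labelled Lok1 7 DAA matched the Lok1 28 DAA arrays at 46 and the WH291 28 DAA arrays, their best match, at 53. Each other group matched its own variety at 83 or 84. Results that rest on the arrays labelled Lok1 7 DAA or WH291 14 DAA are named below, and the labels were kept. The hybridization control bioB also moved with stage: its median at 28 DAA was -3.13 for Lok1, -3.13 for WH291 and -3.0 for Sonalika, against 1.21 for C306 at that stage and between -0.32 and 0.59 for the 7 and 14 DAA groups. The controls bioC, bioD and cre showed no such drop. Their medians at 28 DAA lay between -0.36 and 0.15 in Lok1, WH291 and Sonalika, and were 1.00, 0.82 and 0.54 in C306. The part of bioB in the late rise was not tested. The control transcripts read at both ends moved too. Both ends are centred, so their difference shows only a shift between stages and not which end was higher. In WH291 the centred 3' level minus the centred 5' level was 0.36, 0.69 and 0.56 for actin, GAPDH and EF1a at 7 DAA. At 28 DAA it was 0.04, -0.15 and -0.13. In Lok1 it was 0.18, 0.02 and 0.09 at 14 DAA and -0.18, 0.17 and 0.15 at 28 DAA (log2).

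The median over the 39 members in each array describes the common pattern. It averaged -0.33, -0.39 and 1.15 at 7, 14 and 28 DAA in C306, and -0.37, -0.10 and 1.39 in Sonalika. In Lok1 the averages were -0.39, -0.03 and 1.37, and in WH291 they were -0.43, -0.47 and 1.36 (log2, mean of 3 arrays each). The 28 DAA averages of the 4 varieties thus lay within 1.15 and 1.39. In each variety the lowest 28 DAA array stood above the highest array of the earlier stages, with array medians from 0.94 to 1.86 at 28 DAA and from -0.55 to 0.10 before.

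**Figure D1:**
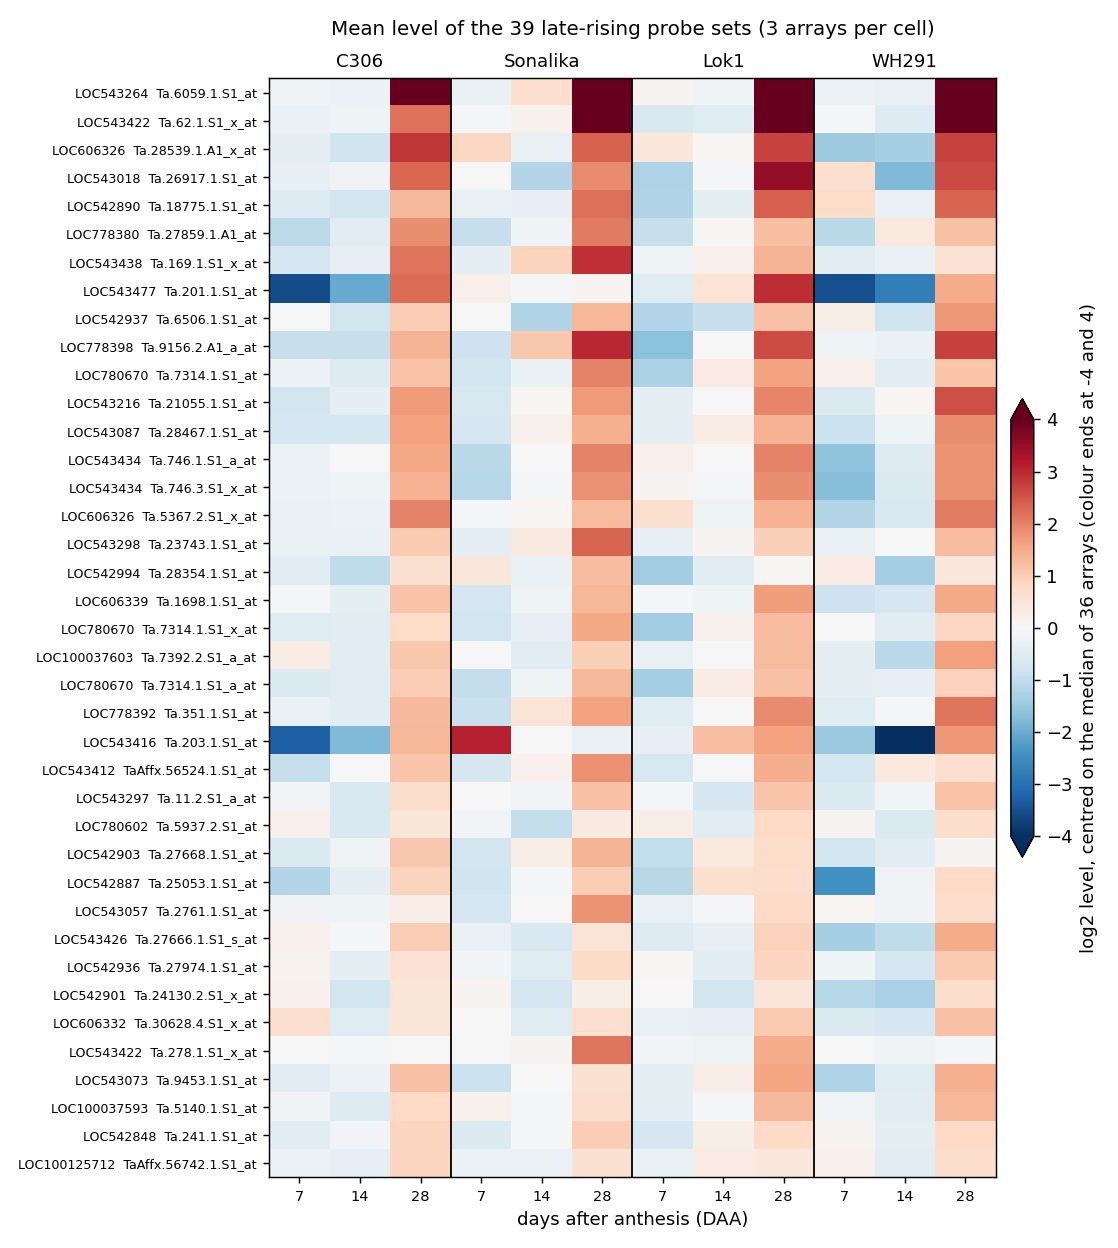
Mean log2 level of the 39 members (rows, ordered by their late rise in C306 and Sonalika) in each variety and stage (columns, 3 arrays each), centred on the median of the 36 arrays. The 28 DAA columns are red in nearly every row, and LOC543477 and LOC543416 are flat or falling in Sonalika.

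LOC543264 had the largest late rise, 5.79 on the log2 scale in the mean of C306 and Sonalika. Its 28 DAA arrays read 7.95, 9.08 and 8.86 in Lok1, against 0.07, -0.28 and -0.19 at 14 DAA. In WH291 they read 7.82, 7.27 and 8.89 at 28 DAA, against -0.11, -0.04 and -0.54 at 7 DAA. No earlier array of either variety came near its 28 DAA values, the highest being 1.02 in an array labelled Lok1 7 DAA. The rise was 8.76 ± 0.36 (SE) in Lok1 between 14 and 28 DAA and 8.22 ± 0.36 in WH291 between 7 and 28 DAA, with adjusted p of 2.61e-16 and 5.98e-16 in the limma fit across all probe sets. In C306 its 28 DAA arrays read 4.63, 4.36 and 4.28 and in Sonalika 7.13, 8.28 and 7.43.

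LOC543422 has 2 members, of which the first is the one with the larger late rise. The first came next after LOC543264, with a late rise of 4.80 in the mean of C306 and Sonalika. In Lok1 it read 6.42, 7.19 and 7.57 at 28 DAA, against -0.50, -0.28 and -0.64 at 14 DAA, a rise of 7.53 ± 0.58 (adjusted p = 1.79e-10, limma). In WH291 it read 5.78, 3.31 and 6.70 at 28 DAA, against -0.12, 0.06 and -0.06 at 7 DAA, a rise of 5.30 ± 0.58 (adjusted p = 1.48e-08, limma). The groups did not overlap in either variety, although the 28 DAA arrays of WH291 spread widely. At 7 and 14 DAA both of these probe sets lay between -0.83 and 1.19 in every variety.

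LOC606326 also has 2 members. The first, with the larger late rise, read 2.36, 2.95 and 2.79 in Lok1 at 28 DAA, against -0.13, 0.42 and -0.01 at 14 DAA, and 2.13, 2.32 and 3.67 in WH291 at 28 DAA, against -1.29, -2.14 and -0.86 at 7 DAA. The rises were 2.61 ± 0.46 in Lok1 and 4.14 ± 0.46 in WH291 (adjusted p = 7.85e-05 and 2.35e-08, limma). These stages did not overlap, and 1 array labelled Lok1 7 DAA read 2.20, close to the 28 DAA arrays. The second member of the gene rose by 1.60 ± 0.39 in Lok1 and 3.24 ± 0.39 in WH291.

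LOC543018, LOC542890 and LOC778380 complete the 6 genes with the largest late rise. LOC543018 read 3.53, 2.84 and 4.16 in Lok1 at 28 DAA, against -0.37, 0.24 and 0.02 at 14 DAA, and rose by 3.55 ± 0.61 (adjusted p = 5.47e-05, limma). Its WH291 arrays were uneven, with 3.88, 1.43 and 2.62 at 28 DAA against -0.32, 2.36 and -0.02 at 7 DAA, so that these groups overlapped. The rise of 1.97 ± 0.61 passed the test (adjusted p = 0.0117, limma), but no longer passed it when replicate 1 or 3 of WH291 at 7 DAA, or replicate 1 at 28 DAA, was left out.

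LOC542890 read 2.38, 2.43 and 2.34 in Lok1 at 28 DAA, against -0.57, -0.29 and -0.20 at 14 DAA, a rise of 2.74 ± 0.39 (adjusted p = 4.1e-06, limma). In WH291 it read 2.41, 2.15 and 2.41 at 28 DAA, against -0.04, 1.30 and 0.97 at 7 DAA, a rise of 1.58 ± 0.39 (adjusted p = 0.00174, limma). Stages did not overlap in either variety. LOC778380 read 1.01, 0.99 and 1.57 in Lok1 at 28 DAA, against -0.33, 0.27 and 0.20 at 14 DAA, and 1.72, 0.78 and 0.97 in WH291 at 28 DAA, against -0.94, -0.97 and -1.33 at 7 DAA. It rose by 1.14 ± 0.39 in Lok1 and 2.24 ± 0.39 in WH291 (adjusted p = 0.0264 and 2.3e-05, limma). The Lok1 call was lost without replicate 1 of Lok1 at 14 DAA or replicate 3 at 28 DAA.

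**Figure D2:**
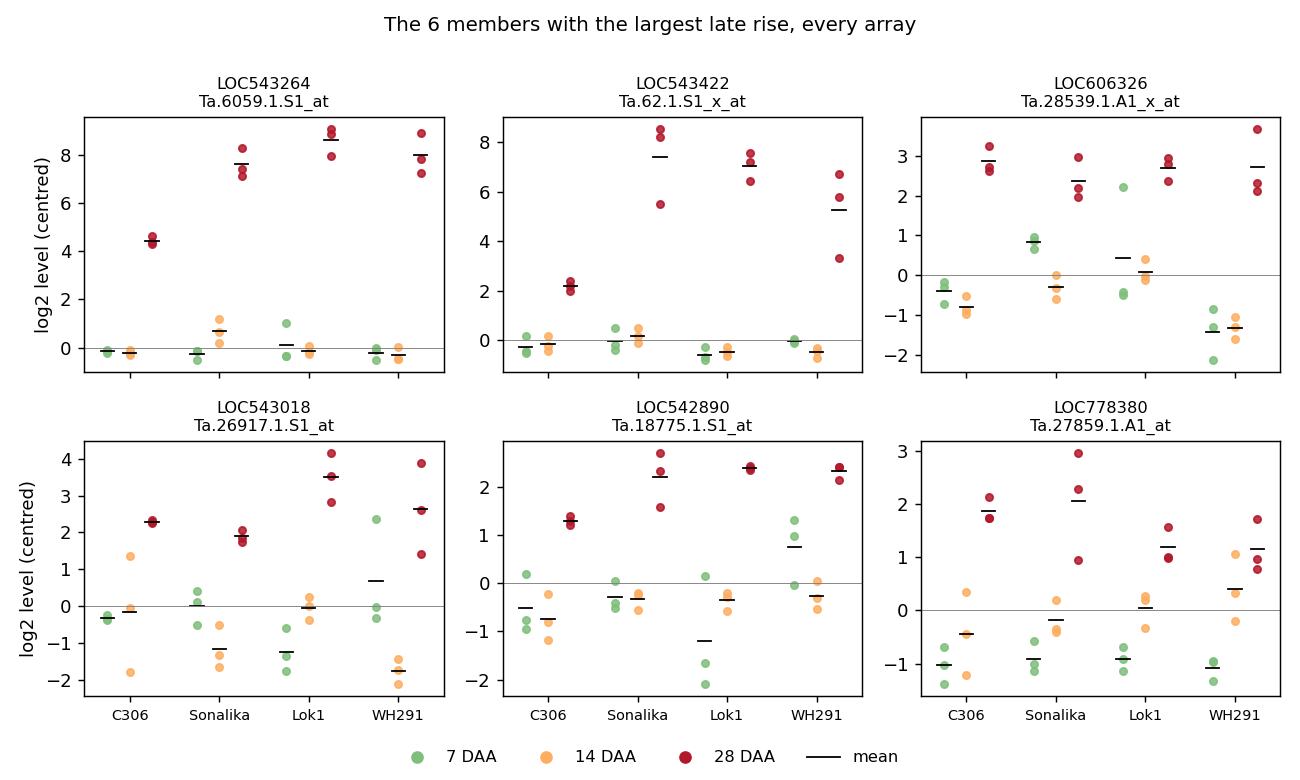
Log2 level (centred, y axis) of the 6 members with the largest late rise in all 36 arrays, by variety and stage, with points for arrays and bars for means of 3. The 28 DAA points of LOC543264 lie between 4.28 and 9.08, and those of C306 are the lowest for this gene and for LOC543422.

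GSTZ1 (LOC543412), with 1 member, read 1.18, 1.61 and 1.56 in Lok1 at 28 DAA, against -0.17, 0.37 and -0.15 at 14 DAA. The rise was 1.43 ± 0.31 (adjusted p = 0.000798, limma). In WH291 it read 1.20, 0.01 and 0.83 at 28 DAA, against -1.50, -0.18 and -0.40 at 7 DAA, a rise of 1.37 ± 0.31 (adjusted p = 0.000733, limma). These stages did not overlap. The arrays labelled WH291 14 DAA read -0.05, 0.44 and 0.76 and overlapped with WH291 at 28 DAA, and the difference of 0.30 ± 0.31 between 28 and 14 DAA as labelled did not pass the test (adjusted p = 0.563, limma). In C306 and Sonalika the member had 0.69 to 1.46 and 1.67 to 1.95 at 28 DAA.

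In Lok1 between 14 and 28 DAA, 31 of the 39 members rose and none fell in the limma fit (Benjamini-Hochberg at 0.05 over 60048 probe sets). Over all probe sets tested, 14.2% were called higher and 12.9% lower in this comparison, and among those with a gene symbol 13.8% and 26.9%. The median change of the members was 1.31, with a range of 0.05 to 8.76, beside a median of 0.05 over all probe sets tested. The members that rose belong to 26 genes, and 24 of the 31 stayed called whichever array was left out. In Lok1, 8 members had a difference of at least 2, which was not counted over all probe sets. The lowest 28 DAA array exceeded the highest 14 DAA array in 31 members, beside 21.1% of all probe sets. The paper's RNA integrity numbers were lower for every Lok1 sample at 28 DAA than for any at 14 DAA. Their part in the rise was not tested.

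In WH291 between 7 and 28 DAA, 31 of the 39 members rose and none fell, beside 18% called higher and 19% lower over all probe sets. Among the probe sets with a gene symbol, 26.5% were called higher and 29% lower. A rise before 14 DAA counts here as well as one after it. The median change of the members was 1.84, with a range of -0.09 to 8.22, beside a median of -0.00 over all probe sets. The arrays compared here are those whose labels were not in doubt, and their 3' to 5' differences of the control transcripts, given above, moved between these stages. The part of this sign of RNA quality in the rise was not tested. Of the 31 members, 28 stayed called whichever array was left out. A difference of at least 2 was seen for 17 members and was not counted over all probe sets. Between the arrays labelled 14 DAA and those of 28 DAA in WH291, 33 members rose and none fell, beside 14.6% and 12.4% over all probe sets, with a median change of 1.91, but the earlier arrays there are those whose labels were in doubt.

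Rises in both Lok1 and WH291 passed the test for 27 members of 25 genes. Over all probe sets 14.2% were called higher in Lok1 and 18% in WH291, and the share called in both was not counted. Of the 25 genes, LOC543434, LOC543216, LOC543087, LOC778392, LOC606339, LOC100037603, LOC543073 and LOC778398 rose in both, by 1.11 to 2.61 in Lok1 and by 2.00 to 3.49 in WH291. Another 10 genes with a called rise in both were LOC543297, LOC543298, LOC542901, LOC543426, LOC542936, LOC606332, LOC100037593, LOC780602, LOC542937 and LOC780670 (1 of its 3 probe sets), which rose by 0.82 to 2.10 in Lok1 and by 0.61 to 2.80 in WH291. The smallest in WH291 was LOC780602, at 0.61 ± 0.21. LOC778398 read 1.77, 3.25 and 2.84 in Lok1 at 28 DAA, against 0.03, 0.58 and -0.58 at 14 DAA. LOC543073 was among the steadiest, with 1.38, 1.67 and 1.72 in Lok1 at 28 DAA, against 0.38, 0.06 and 0.40 at 14 DAA, and 1.63, 1.48 and 1.16 in WH291 at 28 DAA, against -1.31, -1.22 and -1.13 at 7 DAA. Neither gene had overlapping stages in these comparisons.

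**Figure D3:**
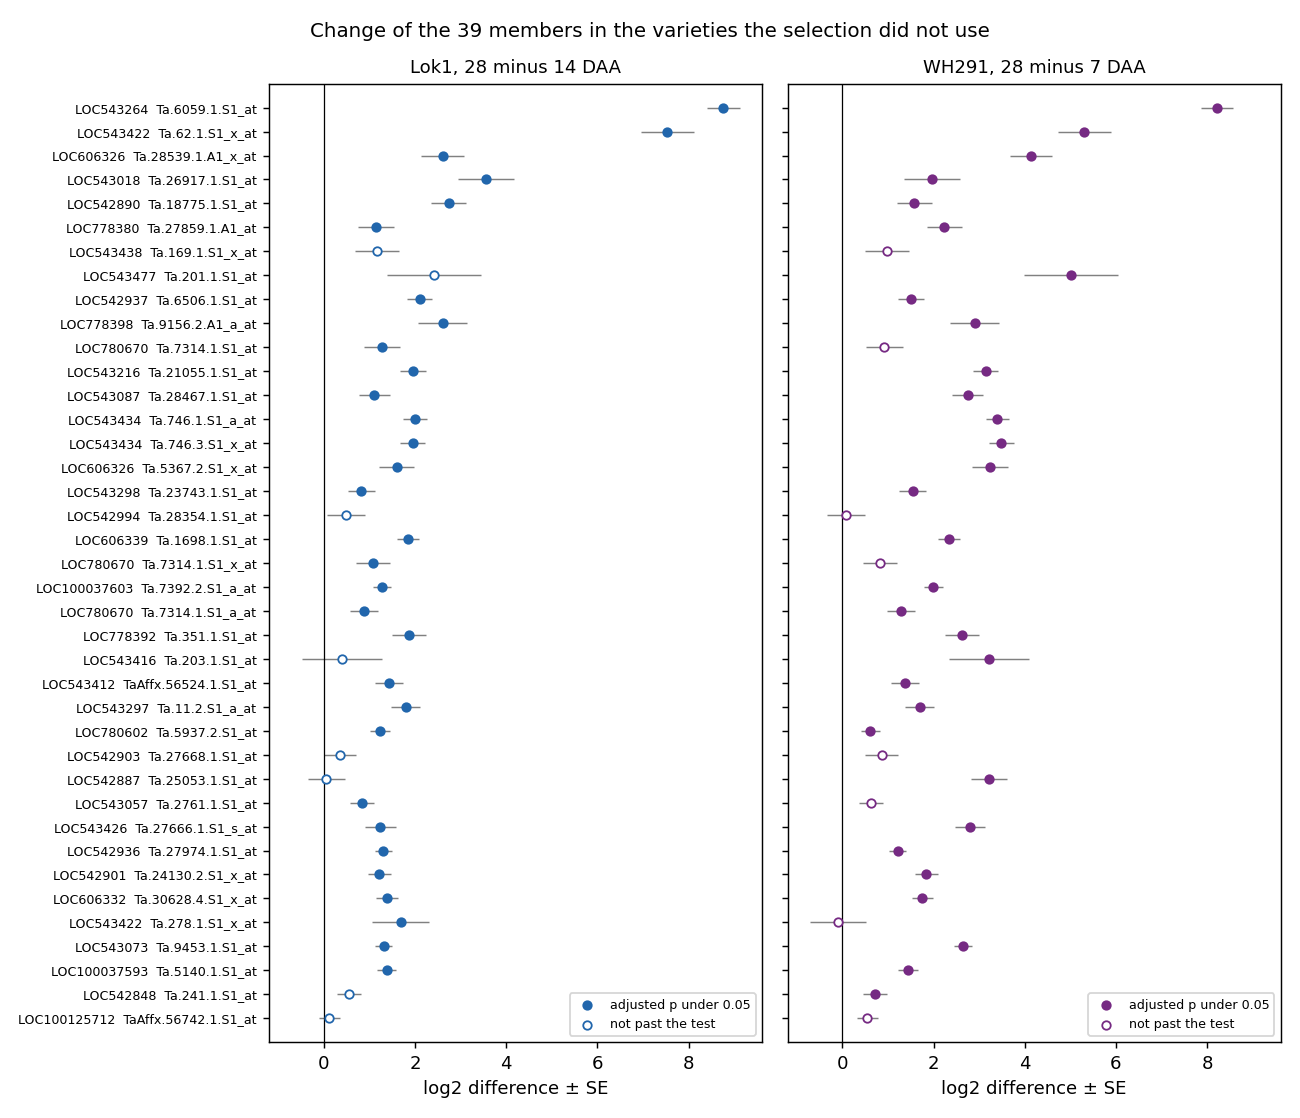
Log2 difference with its standard error (x axis) of each member (rows) in Lok1, 28 minus 14 DAA, and in WH291, 28 minus 7 DAA, each from 3 arrays per stage. Filled points passed the test, 31 in each panel, and the largest changes are 8.76 in Lok1 and 8.22 in WH291, both of LOC543264.

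Members outside both calls were LOC543438, LOC542994, LOC542903 and LOC100125712. LOC100125712 read 0.08, 0.72 and 0.51 in Lok1 at 28 DAA, against 0.22, 0.06 and 0.66 at 14 DAA, and changed by 0.12 ± 0.22 (adjusted p = 0.747, limma). LOC542903 read 1.17, -0.02 and 1.05 in Lok1 at 28 DAA, against -0.38, 0.71 and 0.82 at 14 DAA, a change of 0.35 ± 0.36 (adjusted p = 0.53, limma). LOC542994 read -0.07, -0.44 and 0.65 in Lok1 at 28 DAA, against -1.13, 0.17 and -0.36 at 14 DAA, a change of 0.49 ± 0.42 (adjusted p = 0.45, limma). In all 3 the stages overlapped in Lok1.

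LOC543438 read 2.02, 2.16 and 2.28 in C306 and 4.88, 2.16 and 1.74 in Sonalika at 28 DAA, while Lok1 read 0.22, 1.53 and 2.34 and WH291 0.34, 0.86 and 0.51. Its changes were 1.16 ± 0.49 in Lok1 and 0.98 ± 0.49 in WH291 (adjusted p = 0.0793 and 0.122, limma). Both changes passed the test without replicate 1 of Sonalika at 28 DAA, which read 4.88, and the Lok1 change also without replicate 1 of Lok1 at 28 DAA.

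LOC542887 was already up at 14 DAA in Lok1. Its Lok1 arrays read -1.73, -1.41 and -0.17 at 7 DAA as labelled, 0.74, 0.45 and 0.77 at 14 DAA and 0.78, 0.70 and 0.65 at 28 DAA. The change between 14 and 28 DAA was 0.05 ± 0.40 (adjusted p = 0.945, limma), and that between 7 and 14 DAA as labelled was 1.76 ± 0.40 (adjusted p = 0.00187, limma). In WH291 it rose by 3.21 ± 0.40 between 7 and 28 DAA (adjusted p = 1.39e-07, limma), and the arrays labelled 14 DAA lay between, at -0.48, -0.38 and 0.44. LOC542848 showed a milder form, with 0.18, 1.61 and 0.57 in Lok1 at 28 DAA against 0.12, 0.18 and 0.40 at 14 DAA, a change of 0.56 ± 0.26 that passed the test only without replicate 1 of Lok1 at 28 DAA.

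LOC543477 and LOC543416 entered through C306 alone. LOC543477 averaged -3.55 ± 0.07, -2.02 ± 0.54 and 2.25 ± 0.12 at 7, 14 and 28 DAA in C306, but 0.20 ± 0.20, -0.09 ± 0.09 and 0.10 ± 0.10 in Sonalika (SD, n = 3). LOC543416 averaged -3.26 ± 0.21, -1.76 ± 0.44 and 1.33 ± 0.14 in C306, and 3.08 ± 0.13, 0.03 ± 0.07 and -0.29 ± 0.07 in Sonalika. The 2 genes thus climbed across the 3 stages in C306, while in Sonalika one stayed level and the other was highest at 7 DAA. In WH291 LOC543477 read 1.11, 1.30 and 2.07 at 28 DAA, against -2.93, -3.50 and -4.13 at 7 DAA, a rise of 5.01 ± 1.03 (adjusted p = 0.000218, limma). LOC543416 read 1.69, 1.57 and 1.96 there, against -1.44, -1.60 and -1.40, a rise of 3.22 ± 0.88 (adjusted p = 0.00412, limma).

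These 2 genes also set apart 1 of the doubted arrays. The arrays labelled Lok1 7 DAA read -3.54, -2.49 and 4.62 for LOC543477 and -2.34, -2.81 and 4.18 for LOC543416, so that replicate 3 stood far from the other replicates in both. In Lok1, LOC543477 read 2.70, 2.99 and 3.15 at 28 DAA, against 0.45, 1.56 and -0.41 at 14 DAA. Its rise of 2.41 ± 1.03 did not pass the test with all arrays (adjusted p = 0.0838, limma) and passed it without replicate 1 or replicate 3 of the arrays labelled Lok1 7 DAA, the difference itself being the same. LOC543416 read 1.29, 1.74 and 1.82 in Lok1 at 28 DAA, against 1.11, 1.75 and 0.79 at 14 DAA, and those stages overlapped.

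The step between 7 and 14 DAA was tested only as labelled, because it cannot be had without the arrays in doubt. In Lok1, 9 members were higher and 2 lower at 14 than at 7 DAA, beside 8.98% and 11% over all probe sets. Those higher were all 3 probe sets of LOC780670 (1.55 to 1.62), LOC542887, LOC778398, LOC542903, LOC542848, LOC543073 and LOC100125712, and those lower were LOC780602 (-0.72) and LOC542901 (-0.70). The call of LOC542901 was lost in 24 of the fits with 1 array left out, and that of LOC780602 without replicate 1 of Lok1 at 7 or at 14 DAA. In WH291, 6 were higher and 8 lower, beside 12.3% and 16.3%. LOC542887 had the largest rise there, 2.27 ± 0.40, and LOC543416 and LOC543018 the largest falls, -2.54 ± 0.88 and -2.44 ± 0.61. The call of LOC543416 was lost when any array of the comparison was left out, and that of LOC543018 without replicate 2 of WH291 at 7 DAA. LOC542887 and LOC543073 were higher and LOC780602 lower in both varieties.

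LOC780670 and LOC543434 show how members of 1 gene behaved together. The 3 probe sets of LOC780670 rose between 14 and 28 DAA in Lok1 by 1.27 ± 0.40, 1.07 ± 0.37 and 0.88 ± 0.31, and each call was lost without replicate 1 of Lok1 at 14 DAA or replicate 3 at 28 DAA. In WH291 1 of the 3 passed the test between 7 and 28 DAA (1.28 ± 0.31), and the other two changed by 0.92 ± 0.40 and 0.82 ± 0.37 and did not pass it. Replicate 1 of WH291 at 7 DAA read lower than the other replicates in all 3, at -0.86, -1.01 and -1.27. The 2 probe sets of LOC543434 rose by 1.99 ± 0.26 and 1.95 ± 0.27 in Lok1 and by 3.40 ± 0.26 and 3.49 ± 0.27 in WH291.

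The 39 members carried 24 probe sets of the plain kind and 5, 1 and 9 with the suffixes _a, _s and _x. By the array maker's naming, the probes of the _s and _x sets can also match transcripts of related genes or gene families. In hexaploid wheat these include the copies of a gene in the other subgenomes. Of the 34 genes, 13 had 1 probe set on the array and 21 had more. The 37 probe sets of 18 of these genes that were not members were all tested, and 16 were higher and 1 lower in Lok1 between 14 and 28 DAA, and 15 higher and 3 lower in WH291 between 7 and 28 DAA. Over all probe sets, 14.2% were called higher and 12.9% lower in Lok1, and 18% and 19% in WH291. Among those with a gene symbol the shares were 13.8% and 26.9% in Lok1, and 26.5% and 29% in WH291. Of the 37, 4 had a late rise of at least 1 in C306 and Sonalika, of which 3 were kept out because they had also risen by more than 1 before 14 DAA. The other was 1 of LOC606332, which had fallen by 1.21 on the log2 scale before 14 DAA.

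These 3 had larger changes than the members of the same genes, a difference that was not tested. The one of LOC543216 rose by 3.03 ± 0.21 in Lok1 and 4.31 ± 0.21 in WH291, beside 1.95 ± 0.28 and 3.14 ± 0.28 for the member. The one of LOC778392 rose by 3.80 ± 0.42 and 5.32 ± 0.42, beside 1.87 ± 0.37 and 2.62 ± 0.37, and the one of LOC543087 by 2.23 ± 0.27 and 3.82 ± 0.27, beside 1.11 ± 0.33 and 2.74 ± 0.33. For these genes the late rise was thus read by more than 1 probe set. In LOC606332, which has 7 probe sets, 6 rose in Lok1, by 1.22 to 1.62, and the seventh did not pass the test. In WH291 the member and 2 others of these 6 rose, by 0.86 to 1.75, and the other 3 changed by 0.44, 0.34 and 0.27 and did not pass the test (adjusted p = 0.129, 0.191 and 0.305, limma).

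Other genes disagreed between probe sets. LOC543264 has a second probe set, not a member, that rose by 1.15 ± 0.16 in Lok1 and 0.79 ± 0.16 in WH291, against 8.76 and 8.22 for the member. LOC543422 has, besides its 2 members, a further probe set. The second member read 1.59, 0.03 and 2.82 in Lok1 at 28 DAA, against 0.02, -0.19 and -0.44 at 14 DAA, and stayed at -0.29, -0.01 and 0.03 in WH291 at 28 DAA. Its changes were 1.68 ± 0.62 and -0.09 ± 0.62, against 7.53 and 5.30 for the first member, and the further probe set changed by 2.09 ± 0.66 and -0.12 ± 0.66. The Lok1 call of the second member was lost when any of 5 of the 6 arrays compared was left out, and also without the arrays in doubt.

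Probe sets of LOC778380, LOC778398, LOC543298 and LOC543426 other than the members changed by -0.04 to 0.38 in Lok1, and none of these 5 passed the test, while in WH291 1 of LOC543426 rose by 0.65 (adjusted p = 0.00765, limma). In LOC780602, with 5 probe sets, the member rose by 1.23 ± 0.21 in Lok1 while another fell by 0.91 (SE 0.24, adjusted p = 0.00382, limma) and one more rose by 0.74 ± 0.22. In WH291 the member rose by 0.61 ± 0.21 (adjusted p = 0.0243, limma) and the last of these by 2.43 ± 0.22. The probe set that fell in Lok1 rose there by 1.28 ± 0.24 (adjusted p = 5.67e-05, limma), and a different one, which had changed by -0.55 in Lok1 and not passed the test, fell by 1.26 (SE 0.22, adjusted p = 3.83e-05, limma). GSTZ1 has 2 further probe sets, of which one rose by 1.19 ± 0.21 in Lok1 and the other changed by 0.17 ± 0.23. In WH291 both rose between 7 and 28 DAA, by 2.58 ± 0.21 and 1.30 ± 0.23. The late rise described is thus that of the member probe set and not of every probe set of its gene.

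**Figure D4:**
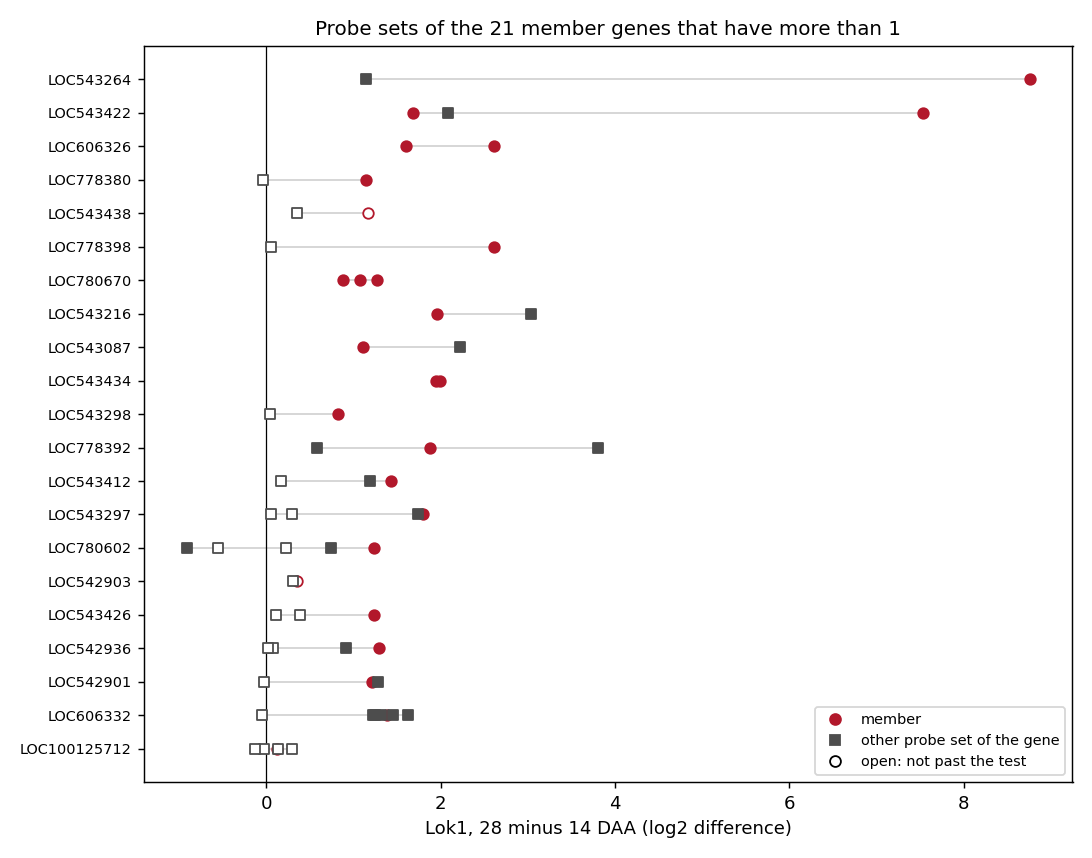
Log2 difference between 28 and 14 DAA in Lok1 (x axis) for every probe set of the 21 member genes that have more than 1 (rows), with circles for members, squares for other probe sets and open symbols for those that did not pass the test. LOC543264 spans 1.15 to 8.76 and LOC543422 spans 1.68 to 7.53, while the 2 probe sets of LOC543434 lie at 1.95 and 1.99.

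The C306 and Sonalika arrays selected the members, so differences between these 2 varieties are given as a description, with no test. In the fit, 5 members were called lower in C306 than in Sonalika at 28 DAA and none higher, beside 3.45% and 3.36% over all probe sets, and nothing is read from these counts. LOC543422 had the lowest difference. Its first member read 1.97, 2.18 and 2.38 in C306, against 8.20, 8.54 and 5.52 in Sonalika, a difference of -5.24 ± 0.58. LOC543264 read 4.63, 4.36 and 4.28 in C306, against 7.13, 8.28 and 7.43 in Sonalika, a difference of -3.19 ± 0.36. Neither overlapped between the 2 varieties. At 14 DAA LOC543264 had read -0.24, -0.12 and -0.31 in C306 and 0.20, 0.63 and 1.19 in Sonalika.

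The other 3 had differences nearer to 0. LOC543057 read -0.08, 0.46 and 0.43 in C306, against 2.23, 1.74 and 1.41 in Sonalika, and met the rule through Sonalika, with a late change of 0.45 in C306 and 1.79 in Sonalika. The second member of LOC543422 read 0.10, -0.13 and -0.05 in C306, against 4.67, 1.62 and 0.13 in Sonalika, and likewise met it through Sonalika, with a late change of 0.05 in C306 and 2.04 in Sonalika. LOC543298 read 1.05, 0.57 and 1.53 in C306, against 2.91, 1.93 and 2.14 in Sonalika, with a late change above 1 in both. Without replicate 2 of C306 or replicate 1 of Sonalika at 28 DAA the count of 5 became 3.

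The late change is the quantity that the rule used. In the fit it was called lower in C306 than in Sonalika for 2 members and higher for none, beside 0.606% of all probe sets called lower and 0.676% higher, and nothing is read from this. The late change of the first member of LOC543422 was 2.36 in C306 and 7.25 in Sonalika, a difference of -4.89 ± 0.82. That of LOC543264 was 4.65 in C306 and 6.94 in Sonalika, a difference of -2.29 ± 0.50, and of -0.42 with quantile normalization between arrays. The count of 2 became 1 without replicate 3 of C306 at 28 DAA, replicate 1 of Sonalika at 14 DAA or replicate 2 of Sonalika at 28 DAA, and 4 without replicate 3 of Sonalika at 28 DAA.

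LOC543477 and LOC543416, which met the rule through C306, were the members at the other end. At 28 DAA LOC543477 read 2.38, 2.14 and 2.22 in C306, against 0.00, 0.21 and 0.08 in Sonalika. LOC543416 read 1.20, 1.48 and 1.31 in C306, against -0.36, -0.21 and -0.29 in Sonalika. The differences were 2.15 ± 1.03 and 1.62 ± 0.88, and the 2 varieties did not overlap for either gene. Without replicate 3 of the arrays labelled Lok1 7 DAA, 2 members were called higher in C306 than in Sonalika at 28 DAA and 2 for the late change.

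No member passed the test between Lok1 and WH291 at 28 DAA, beside 3.75% higher and 4.33% lower over all probe sets in limma, and 4 members had an unadjusted p under 0.05. The first member of LOC543422 came nearest, with a difference of 1.79 ± 0.58 (adjusted p = 0.0545, limma), followed by the second member of that gene at 1.57 ± 0.62 and GSTZ1 at 0.77 ± 0.31. LOC543216 had a difference of -0.65 ± 0.28. LOC543477, at 1.46 ± 1.03 with all arrays, passed the test without replicate 3 of the arrays labelled Lok1 7 DAA (adjusted p = 0.00622, limma). Between good and poor varieties at 28 DAA, a comparison that includes the C306 and Sonalika arrays, no member passed either, beside 1.38% higher and 0.784% lower over all probe sets in limma, and 4 had an unadjusted p under 0.05. LOC543298 had a difference of -0.79 ± 0.25, and LOC543264 and the first member of LOC543422 had differences of -1.28 ± 0.59 and -1.72 ± 0.77.

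**Figure D5:**
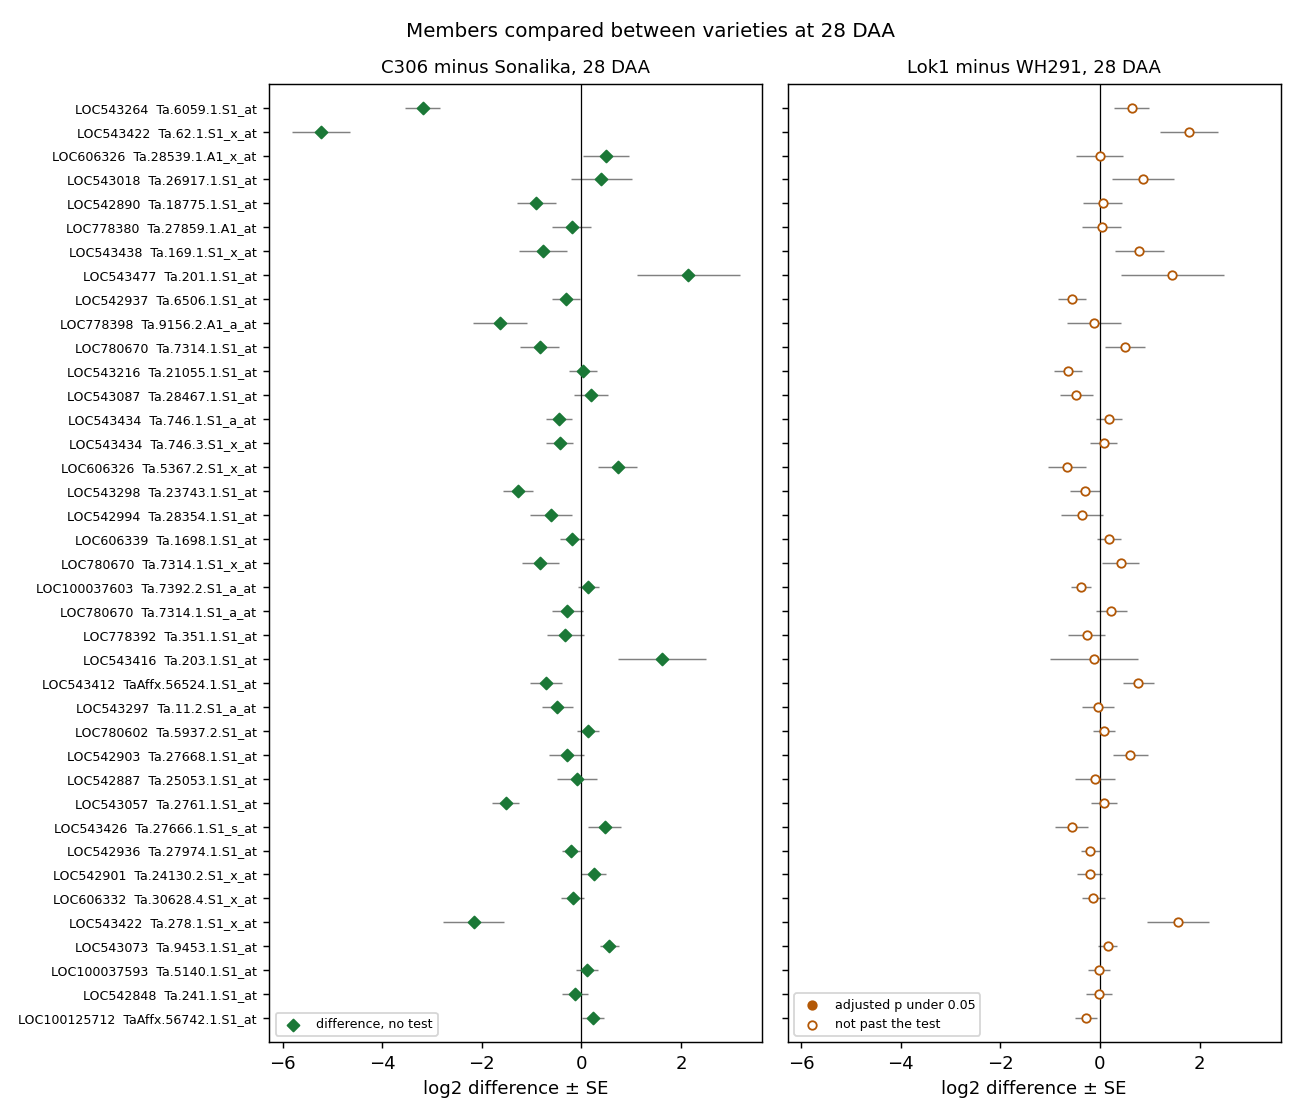
Log2 difference with its standard error (x axis) of each member (rows) between C306 and Sonalika and between Lok1 and WH291 at 28 DAA, 3 arrays per variety. The C306 panel is a description of arrays that chose the members, with values from -5.24 to 2.15 and no test marked, and in the Lok1 panel no point passed the test.

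The 28 DAA level was also set side by side between varieties, as a description, since the arrays of C306 and Sonalika enter it. The range of the 4 variety means had a median of 0.86 over the members. It was under 1 for 25 of them, reached 2 for 6 and was not computed over all probe sets. Sonalika had the highest mean at 28 DAA for 17 members, WH291 for 12, Lok1 for 8 and C306 for 2. Replicates of C306 at 28 DAA were the closest, with a median SD over the members of 0.12, beside 0.31 in Lok1, 0.36 in WH291 and 0.45 in Sonalika. In Sonalika at 28 DAA, replicate 3 was the lowest of the replicates for 27 members and replicate 2 the highest for 32, and in Lok1 replicate 1 was the lowest for 30. This order was not counted over all probe sets, so it is not read as a trait of the members.

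Order across all stages was also counted. In the varieties that the rule did not use, the lowest 28 DAA array stood above every array of 7 and 14 DAA for 28 members in Lok1, beside 11.8% of all probe sets, and for 29 in WH291, beside 13.1%. Without the arrays in doubt these were 31 members in Lok1, beside 21.1%, and 32 in WH291, beside 22.4%. In the varieties that chose the members, the counts were 35 in C306 and 32 in Sonalika, beside 10.3% and 9.39%, and nothing is read from them. All 4 varieties met this for 18 members, beside 3.29% of all probe sets. The choice of members by C306 and Sonalika enters this count, and nothing is read from it. Among the 18 were LOC543264, the first member of LOC543422, both probe sets of LOC543434, LOC606339 and LOC100037593.

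Named genes of grain tissues and pathways were counted as a comparison, over all annotated probe sets. Some of them, such as the Em, Rab, histone and tubulin genes, could not be members by the rule. Among probe sets with a gene symbol, 13.8% were called higher and 26.9% lower in Lok1, and 26.5% and 29% in WH291. The list of embryo and desiccation proteins, Em, Rab15, LEA1 and PER1, held 11 probe sets and no member. Its Em and Rab15 probe sets were barred by name, so nothing is read from this. Between 7 and 28 DAA in WH291 10 of the 11 rose, with a median of 8.82, but between 14 and 28 DAA in Lok1 none passed the test and the median was 0.58. Rab15, a dehydrin, rose by 7.28 to 7.81 in WH291 and changed by 0.17 to 0.22 in Lok1. The Em probe sets rose by 9.31 to 12.28 in WH291 and changed by 0.93 to 1.73 in Lok1. In the mean of C306 and Sonalika, the change between 14 and 28 DAA was 3.20 to 3.80 for Em and 1.74 to 1.89 for Rab15. For LEA1 it was 1.21, and for the PER1 probe sets 0.05 and -0.25. At 14 DAA the median of the list was 0.50 in Lok1, 0.71 in Sonalika and -2.91 in C306, while the median over the members at 14 DAA was -0.03, -0.10 and -0.39 in these varieties.

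Dividing-cell genes, histones and tubulins, fell in Lok1 for 15 of 20 probe sets and rose for 1, and in WH291 fell for 18 and rose for 2. The starchy endosperm list, matched by gene name, held gliadins, glutenins, avenin-like proteins and GBSS I, the starch synthase of amylose. It also took in GLU1A by its symbol, and the product of GLU1A was not checked. Of the 16 probe sets of the list that were tested, 8 fell in Lok1 and none rose, while in WH291 12 rose and 2 fell. Those 2 were GBSS I, at -3.38 ± 0.88, and GLU1A, at -3.06 ± 0.53. Photosynthesis genes of the green pericarp fell for 1 of 5 in Lok1 and 3 of 5 in WH291, with 1 probe set of petC, the Rieske protein of the chloroplast electron chain, at -3.49 ± 0.77 and -5.74 ± 0.77. The aleurone list of LTP3, a lipid transfer protein, and PER1 had 2 of 4 lower in Lok1 and 1 higher and 1 lower in WH291. The part of these tissues in the late rise of the members was not tested.

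Redox genes were the list with a member, GSTZ1. In Lok1, 2 of 12 probe sets rose, both of GSTZ1, and none fell, and in WH291 5 rose and 5 fell. A probe set of the antioxidant PER1 rose by 8.82 ± 0.89 in WH291 and had a difference of -0.00 ± 0.89 in Lok1, and 3 probe sets of Prx1 fell in WH291, with changes of -5.28 to -3.59 on the log2 scale. Defence genes, among them the thionins THI1.1, THI1.2 and THI1.3, fell in Lok1 for 8 of 11 and in WH291 rose for 7 and fell for 1. Carbohydrate enzymes fell in Lok1 for 6 of 9 and rose for 1, and fell for 4 in WH291. The small lists held no member, and the probe set of wci could not be one because the study had tabulated it. Of the 3 probe sets listed under water stress and cold, wci was lower in Lok1 and LEA1 higher in WH291. The paper annotates the probe set of wci as a trypsin inhibitor, and COR410 and LEA1 did not pass the test in Lok1. The chaperones had FKBP70, a peptidyl-prolyl isomerase, higher in WH291. The ubiquitin-conjugating enzyme UBC1 had 2 of 3 higher in WH291, and the transporter TPC1 passed the test in neither.

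The late-rise minimum of 1 set the edge of the set. Just inside it were LOC100037593 at 1.02, LOC542848 at 1.02 and LOC100125712 at 1.00, and just outside LOC100037645 at 0.999, LOC543188 at 0.977 and LOC780655 at 0.975. Those inside read 0.96, 1.49 and 1.46 for LOC100037593 and 0.08, 0.72 and 0.51 for LOC100125712 in Lok1 at 28 DAA. At the limit on the earlier step, LOC542937 with a change of -0.97 and LOC778398 with 0.96 were inside, and LOC606323 with 1.05 and LOC543142 with 1.05 outside. In all, 33 eligible probe sets with a late rise of 1 or more were left out because they had risen earlier and 2 because they had fallen earlier.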

How the data were processed

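Developing grain of 4 varieties at 3 stages was hybridised to 36 arrays. The authors deposited log2 signals, computed by RMA in GeneSpring and expressed relative to the median of a probe set across arrays. The number of arrays limits the precision. Symbols came from the platform annotation, in which 1273 probe sets have 1 symbol and 60017 none, and 39 of 39 members matched RefSeq by gene identifier. The rule allowed 60 members and 39 met it. Members and lists were chosen with earlier results of these data known. Role groups could not be formed, since 1 member gene is named.

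Variety and stage were combined into 12 groups, and quality and stage into 6, each fitted with limma 3.58.1 in R 4.3.3 and tested on simulated data first. Benjamini-Hochberg adjustment at 0.05 ran over 60048 probe sets, namely those at or above the 20th percentile of their array throughout 1 or more of the 6 groups. Genes given with array values were the largest late rises, differences between varieties past the test, the smallest changes in Lok1, both sides of the limits, and genes with several probe sets. Alternatives were other filters, normalizations, weights, subsets, a replicate block and leaving out arrays. The labels call the replicates biological.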

Additional observations from a re-analysis of the deposited data

Results flagged for a closer look

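In the limma fit the late change was called different between C306 and Sonalika for the first member of LOC543422 (-4.89) and for LOC543264 (-2.29). The arrays of these 2 varieties selected the members by this same change, so both values are descriptions and support nothing. Among the 78 sets of 6 arrays tested, the 39 members in good and in poor varieties at 28 DAA, no array stood apart from the other 5 by Dixon's criterion. Each set pools 2 varieties, so a difference between them can hide an array that stands apart within its own variety.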

How the results depend on the processing

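The counts of members higher at the late stage held under every alternative run: 25 to 33 in Lok1 (24 to 32 with 1 array left out), 30 to 33 in WH291 between 7 and 28 DAA (29 to 34) and 33 to 34 in WH291 between 14 and 28 DAA as labelled (32 to 34), with none lower. Smaller counts moved, of which those between C306 and Sonalika are descriptions. With quantile normalization 4 members were lower in Lok1 at 14 than at 7 DAA, 3 higher in WH291 for that step, 2 had a larger and 1 a smaller late change in C306 than in Sonalika, and 1 was lower in Lok1 than in WH291 at 28 DAA. Also in WH291 at 14 against 7 DAA, the first member of LOC606326 and LOC543477 turned to -1.22 and -2.83 under it. With each array shifted to a median of 0, 1 was lower in the early step of Lok1. With array weights 1 was lower in that step, 2 were higher in Lok1 than in WH291, 3 higher in C306 than in Sonalika, 3 had a larger late change in C306 and 1 was lower in good varieties. Without the arrays in doubt these were 1 higher in Lok1, 3 higher in C306 and 2 with a larger late change. In a fit of C306 and Sonalika alone, 3 were higher in C306 and 2 had a larger late change, and in one of Lok1 and WH291 alone, 1 and 5 were lower in their early steps. The filter at the 40th percentile gave 1 higher in Lok1 than in WH291. The cause was not tested. With 1 array left out, the members lower in the early step were 0 to 3 in Lok1 and 3 to 9 in WH291, those higher and lower in C306 than in Sonalika 0 to 2 and 3 to 6, those with a larger and smaller late change 0 to 2 and 1 to 4, those higher and lower in Lok1 than in WH291 0 to 2 and 0 to 1, and those lower in good varieties 0 to 1. Replicates with the same number did not deviate together (median r = 0.00278 over 198 pairs of arrays, 41 of them over 0.1). With the replicate number as a block, the counts higher were 31 in Lok1, 33 in WH291 between 7 and 28 DAA and 33 between 14 and 28 DAA, 9 higher and 2 lower in the early step of Lok1, 6 and 9 in that of WH291, 5 lower in C306 than in Sonalika and 2 with a smaller late change there. For single members, 121 calls were lost and 69 gained over all fits with 1 array left out, and 28 lost and 48 gained under the other settings. Stage medians in place of means kept 34 of the 39 members, an early limit of 0.75 kept 29 and one of 1.5 kept 39.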
